A study of Mus musculus with 4 samples.

Results

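The globin genes and the red cell carbonic anhydrase genes were compared between Mtg16 null and wild-type mice, in the lineage-negative fraction of the bone marrow. The gene set was a fixed list of 8 symbols, namely Hba-a1, Hba-x, Hbb-b1, Hbb-bh1, Hbb-y, Ahsp, Car1 and Car2. All probes annotated with a single symbol from that list were taken, which gave 7 probes of 6 genes (Car1 has 2) out of 33012 probes and 13840 named genes. Hbb-b1 and the globin chaperone gene Ahsp matched no such probe and were not analysed here. The list was chosen with earlier results of these data known, so counts over its members are a description.

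The wild-type group was C57BL/6 females aged 8 to 12 weeks, and the Mtg16 null group was females of the same age from a line backcrossed into C57BL/6 (N4 in the labels). Each group had 2 single-colour Applied Biosystems arrays, with 1 array per genotype from each of 2 manufacturing lots of the array. RNA of an array came from the pooled femur and tibia marrow of 4 mice, depleted of lineage-marked cells on magnetic columns. The labels do not say whether the arrays of a genotype came from separate pools, so p-values measure only the spread between these arrays, which may be technical. A backcrossed line can still carry donor segments around and away from the deleted gene; the labels name no tissue-specific deletion.

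Haemoglobin is a tetramer of α-type and β-type globin chains that each hold a haem group. In the mouse, Hba-a1 is an α gene of adult red cells, while Hba-x (ζ), Hbb-y (εy) and Hbb-bh1 (βh1) are embryonic genes, used mainly by the primitive red cells of the yolk sac. Car1 and Car2 encode cytosolic carbonic anhydrases, which interconvert carbon dioxide and bicarbonate and are abundant in red cells and their precursors. Car2 is also known from osteoclasts and other cell types. Mtg16, also called ETO2 and listed as Cbfa2t3, is a corepressor found in erythroid complexes with SCL/TAL1, LDB1 and GATA1.

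The promoters of 3 members, adult and embryonic globin genes, are shown so that their start regions can be read side by side. Whether their letters bear on the signals was not tested. RefSeq (GRCm38.p6) windows were found for Hba-a1, Hba-x and Hbb-y, 3 of the 6 genes with a probe, and the 250 bases before each gene's start are given 5′ to 3′ on the gene's strand. The Hba-a1 window lies at chr11:32283422-32283671, + strand, the Hba-x window at chr11:32276350-32276599, + strand and the Hbb-y window at chr7:103853208-103853457, - strand. Capitals mark matches on either strand to either of the GATA-type motifs, which are AGATAA and the variant TGATAA, to the short box CACCC that Krüppel-like factors read, or to the TATA box as TATAAA.
Hba-a1: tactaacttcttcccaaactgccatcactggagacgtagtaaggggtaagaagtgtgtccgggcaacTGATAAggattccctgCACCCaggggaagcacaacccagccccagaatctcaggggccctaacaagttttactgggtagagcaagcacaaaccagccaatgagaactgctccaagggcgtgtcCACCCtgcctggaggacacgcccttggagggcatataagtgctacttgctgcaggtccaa
Hba-x: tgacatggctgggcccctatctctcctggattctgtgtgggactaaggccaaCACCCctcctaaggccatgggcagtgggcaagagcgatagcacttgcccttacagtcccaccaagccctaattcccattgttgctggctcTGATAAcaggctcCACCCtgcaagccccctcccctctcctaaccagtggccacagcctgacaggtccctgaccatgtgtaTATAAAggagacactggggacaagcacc
Hbb-y: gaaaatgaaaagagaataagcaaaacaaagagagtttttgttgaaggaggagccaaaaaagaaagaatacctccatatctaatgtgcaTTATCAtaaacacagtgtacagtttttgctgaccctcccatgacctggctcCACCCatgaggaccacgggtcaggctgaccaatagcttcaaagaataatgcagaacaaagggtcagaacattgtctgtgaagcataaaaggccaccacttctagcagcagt

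Each of these windows held 1 match to TGATAA and 0 to the other GATA-type motif. It began 183 bases before the start of Hba-a1, 108 bases before that of Hba-x and, on the opposite strand, 162 bases before that of Hbb-y. Hba-a1 had CACCC at 167 and 60 bases before the start, Hba-x at 198 and 95, and Hbb-y at 111. Of these promoters, that of Hba-x alone matched TATAAA, 28 bases before the start. Matches to different motifs did not overlap. Among all 32851 promoter windows of this length, the first GATA-type motif was found in 9.99% and the variant in 7.94%. The CACCC box was found in 52.0% and the TATA box in 12.4%. A match is a description of the letters and not a measured site.

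Signals are probe intensities in arbitrary units, which the deposited values give after normalization to a common distribution, with a median of 470 units on every array. Progenitor genes were bright. Kit, the stem cell factor receptor gene, read 34022 to 47408 units. Cd34 read 16790 and 13518 units in wild type and 42939 and 41215 in the null arrays. Markers of mature cells that lineage depletion targets varied. The T cell gene Cd3e read 120 to 325 units, Itgam 321 to 690 and Cd5 3095 to 4646. Ptprc, the pan-leukocyte CD45 gene and so not a marker of mature cells alone, read 2384 to 4240. Ly6c1, of the Ly6C antigen, read 79832 and 53032 units in wild type and 208577 and 175504 in the null arrays. Neutrophil genes were present as well, and S100a9 read 730356 and 886196 units in wild type. The female mice have no Y chromosome, and the 4 probes of Y-linked genes read 94.5 to 498 units, which serves here as the range of background. The probe for Cbfa2t3 read 80854 and 100256 units in wild type and 95520 and 118572 in the null arrays. It was not lower there (log2 difference 0.24, SE 0.24, limma adjusted p = 0.767). Whether its target lies in the deleted part is unknown here, so all directions rest on the labels.

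The adult α-globin and both carbonic anhydrase genes were lower in the Mtg16 null arrays, by 1.47-fold for Hba-a1, 1.62-fold for Car2 and, by its 2 probes, 2.08-fold and 4.45-fold for Car1. The embryonic globin genes were near background or little different. Of the 7 probes, 5 had both null arrays below both wild-type arrays, and 2 overlapped between genotypes. By the same rule 19.1% of all 33012 probes were lower without overlap and 19.0% were higher. Among the 331 probes in the brightest 1%, where Hba-a1 and the brighter Car1 probe lie, 11.5% were lower. None of the members passed limma at an adjusted p under 0.05: of the 16506 kept probes, the brighter 50% on which the test was run, 0% (0 probes) passed and 2193 had an unadjusted p under 0.05. The lower direction at an unadjusted p under 0.05 held for 3 member probes (both of Car1 and Car2) and for 5.83% of the kept probes.

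**Figure D1:**
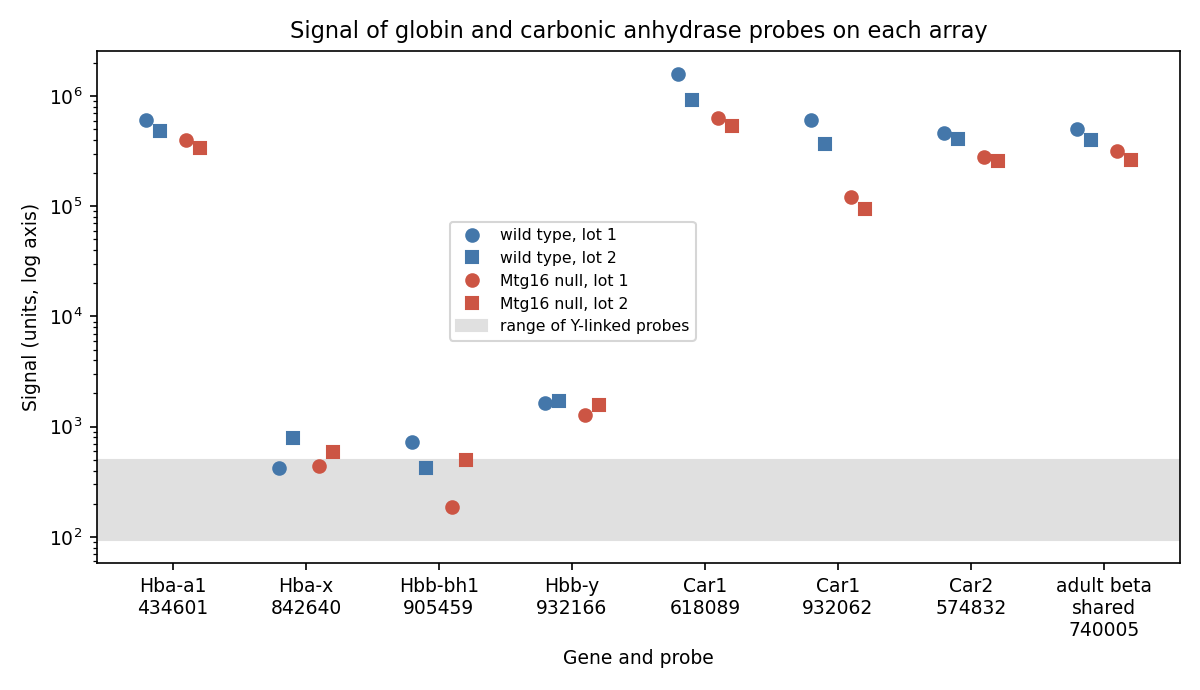
Signal (units, log axis) of each member probe on the 4 arrays, with the probe shared by several adult β-globin genes at the right; circles are lot 1, squares lot 2, blue wild type and red Mtg16 null. The Hba-a1, Car1 and Car2 probes lie between 94226 and 1586816 units with every null array below every wild-type array, whereas Hba-x and Hbb-bh1 lie in or near the grey band, 94.5 to 498 units, of Y-linked probes.

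Hba-a1, which encodes the adult α chain, read 604684 and 484706 units on wild-type arrays 1 and 2 and 399121 and 338351 units on null arrays 1 and 2. Both null values were below both wild-type values, and the mean was 544695 ± 84837 units in wild type against 368736 ± 42971 in the null arrays (SD, n = 2). The log2 difference was -0.56 (SE 0.23, 95% interval -1.19 to 0.07, limma adjusted p = 0.425). It was -0.60 within lot 1 and -0.52 within lot 2. The difference between genotypes was thus larger than that between arrays of a genotype, which was 0.32 in wild type and 0.24 in null on the log2 scale, with lot 2 lower. The probe lay at percentile 99.0 of mean level. The neighbouring α gene Hba-a2 is a near copy with no probe of its own among those used, so this signal may include its transcript.

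Adult β-globin could not be assigned to 1 gene. A probe annotated with both Hbb-bt and Hbb-b2, and therefore outside the gene set, read 505014 and 399121 units in wild type and 320786 and 262296 in the null arrays. Its groups did not overlap, and its log2 difference was -0.63 (SE 0.24, 95% interval -1.29 to 0.03, limma adjusted p = 0.395). Within the lots it was -0.65 and -0.61, beside -0.60 and -0.52 for Hba-a1. The differences of the adult α and β probes were therefore close in each lot, in arrays that they share. Hbq1a, a θ-type globin gene at the end of the α cluster, read 13823 and 16811 units in wild type and 8551 and 10592 in the null arrays by the brighter of its 2 probes (log2 difference -0.68, SE 0.23, limma adjusted p = 0.358; -0.69 and -0.67 within the lots). Its other probe read 153 to 281 units on all 4 arrays, within the Y-linked range.

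The embryonic α-type gene Hba-x read 420 and 795 units in wild type and 444 and 592 in the null arrays. The groups overlapped, and the lots differed in sign, at 0.08 in lot 1 and -0.43 in lot 2. The mean log2 difference was -0.17 (SE 0.40, 95% interval -1.28 to 0.94, limma adjusted p = 0.924). On lot 1 both genotypes were within the Y-linked range, so no change could be resolved. Hbb-bh1, embryonic β-type, read 732 and 423 units in wild type and 187 and 502 in the null arrays. These values also overlapped, with -1.97 in lot 1 and 0.25 in lot 2, the widest gap between lots of any member. The probe fell below the filter and was tested only without it (log2 difference -0.86, SE 0.61, limma adjusted p = 0.778).

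Hbb-y, the other embryonic β-type gene, was above the Y-linked range on every array. It read 1634 and 1703 units in wild type and 1284 and 1582 in the null arrays. The null arrays were lower without overlap, but by little: the log2 difference was -0.23 (SE 0.21, 95% interval -0.81 to 0.35, limma adjusted p = 0.751), with -0.35 in lot 1 and -0.11 in lot 2. The null arrays differed from each other by 0.30 on the log2 scale, more than the genotypes did. No embryonic globin probe was higher in the null arrays in both lots.

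Car2 had the smallest spread of the bright members. It read 461845 and 408376 units in wild type and 280403 and 257694 in the null arrays. The groups did not overlap, with means of 435110 ± 37808 and 269048 ± 16057 units (SD, n = 2). The log2 difference was -0.69 (SE 0.19, 95% interval -1.23 to -0.15, limma adjusted p = 0.293), and -0.72 and -0.66 within the lots. Arrays of a genotype differed by 0.18 in wild type and 0.12 in null, well under the difference between genotypes.

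Car1 was the member with the largest difference. Probe 618089, the brightest of all member probes, read 1586816 and 928454 units in wild type and 628963 and 540187 in the null arrays. The null arrays were lower without overlap (log2 difference -1.06, SE 0.34, 95% interval -1.99 to -0.12, limma adjusted p = 0.334), by 1.34 in lot 1 and 0.78 in lot 2 on the log2 scale. The wild-type arrays differed from each other by 0.77, and without wild-type array 1 the log2 difference was -0.67. Probe 932062 read 605977 and 371245 units in wild type and 120334 and 94226 in the null arrays. Here the null arrays were lower by 2.33 in lot 1 and 1.98 in lot 2, and the mean log2 difference was -2.16 (SE 0.33, 95% interval -3.08 to -1.23, limma adjusted p = 0.174). With the brightest 25% of probes as the tested set, in which 4.01% of probes passed, this probe passed (limma adjusted p = 0.0308). It also passed with a variance trend, with 1.42% of probes passing (limma adjusted p = 0.0371).

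The probes of Car1 carry the same transcript accession in the annotation and agreed in direction but not in size. The log2 ratio of probe 618089 to probe 932062 was 1.39 and 1.32 on the wild-type arrays and 2.39 and 2.52 on the null arrays. The ratio was thus higher on both null arrays, by 1.00 in lot 1 and 1.20 in lot 2, and a mean gap of 1.10. An exact two-sided permutation test over the 4 arrays gave p = 0.333, the smallest it can give, so it could not decide whether the ratio differs between genotypes. Among the 280 genes with several kept probes the median gap between probe differences was 0.20, and 7 genes (2.5%) had a gap at least as large as that of Car1. On these arrays the size of the Car1 difference thus varied with the probe, and where each probe lies in the transcript is not given in the sources used here.

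**Figure D2:**
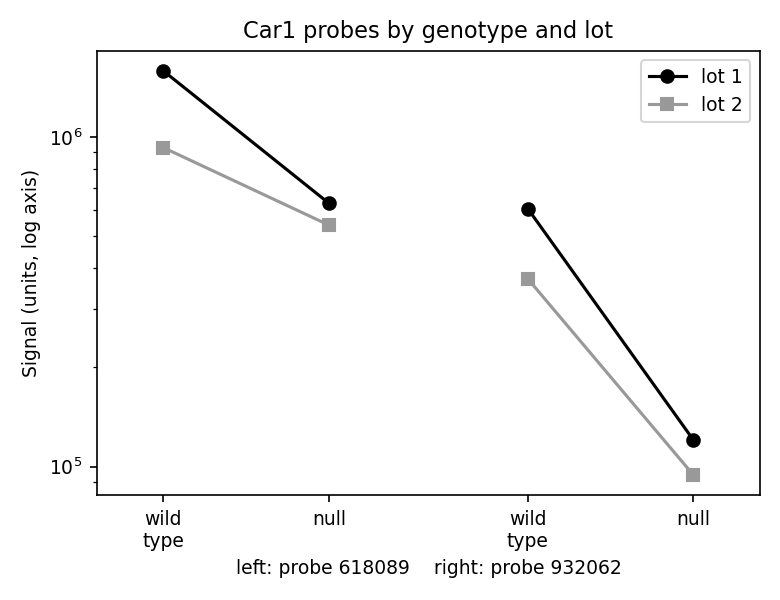
Signal (units, log axis) of the Car1 probes by genotype, with a line joining the arrays of each lot. Both probes are lower in null in both lots, and the lines of probe 932062 (log2 differences -2.33 and -1.98) are steeper than those of probe 618089 (-1.34 and -0.78).

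The bright members also shared a difference between lots. Hba-a1, both Car1 probes and Car2 were lower in lot 2 than in lot 1 in wild type and in null, which 32.8% of the kept probes were as well. The difference between lots was largest for Car1 in wild type. Each genotype had 1 array in each lot, and with the lot as a term in the model no member passed either (adjusted p 0.169 to 0.663 over the 6 kept probes). Of the differences between genotypes, those of Hba-a1 and Car2 moved least between lots, by 0.08 and 0.06 on the log2 scale.

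**Figure D3:**
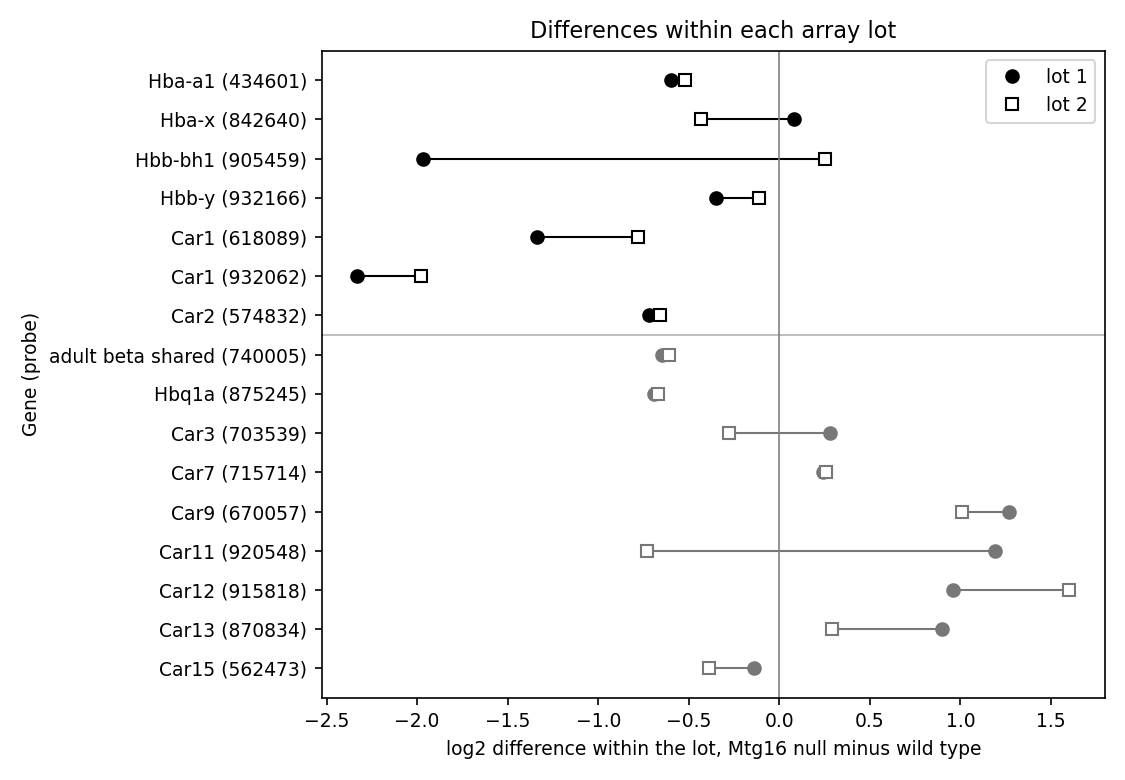
log2 difference, Mtg16 null minus wild type, within lot 1 (filled circles) and lot 2 (open squares), for the member probes (above the line) and for other kept globin and carbonic anhydrase probes (below it). Of the members, Hba-a1, Car1, Car2 and Hbb-y lie below 0 in both lots, and Hba-x and Hbb-bh1 lie on both sides of 0. Of the others, the shared adult β probe, Hbq1a and Car15 lie below 0 in both lots, and Car3 and Car11 on both sides. Car7, Car9, Car12 and Car13 lie above 0 in both, with Car12 at background in wild type.

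The other carbonic anhydrase genes were mixed in direction, and their counts were near the shares over all kept probes. Of 13 with a probe, 7 were kept, of which 0 passed limma, 2 were higher without overlap (21.0% of kept probes were) and 1 was lower without overlap (21.9% were). The higher ones were Car9 and Car12, which encode membrane-bound enzymes with an extracellular active site. Car9 read 3285 and 2928 units in wild type and 7902 and 5916 in the null arrays (log2 difference 1.14, SE 0.24, limma adjusted p = 0.210). Car12 read 456 and 470 units in wild type, within the Y-linked range, and 889 and 1425 in the null arrays, so the size of its difference is not resolved from background (limma adjusted p = 0.232). The lower one was Car15 (-0.27, SE 0.19), and Car7 (0.25) and Car11 (0.23) overlapped. Car5a, a mitochondrial form below the filter, read 646 and 741 units in wild type and 221 and 225 in the null arrays, the latter within the Y-linked range. It was also lower without overlap (log2 difference -1.63), by a size not resolved from background. Car4, Car5b, Car6, Car10 and Car14, also below the filter, read between 88.8 and 1051 units. Of these, Car14 alone did not overlap between genotypes. It was higher in null (log2 difference 0.93) but within the Y-linked range on every array.

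In the RefSeq gene order Car13, Car1, Car3 and Car2 are consecutive protein-coding genes. Car3, between Car1 and Car2, read 2367 and 2242 units in wild type and 2867 and 1851 in the null arrays. It had a log2 difference that rounds to 0 (SE 0.29), with 0.28 in lot 1 and -0.28 in lot 2. Car13 had one of 0.59 (SE 0.42, limma adjusted p = 0.654), with overlapping groups. The lower signal of Car1 and Car2 was thus not seen for the other genes of the cluster, although the differences between these genes were not tested.

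Genes that work beside globin were compared as lists. Of 13 haem synthesis and transport genes kept, 0 passed limma, 11 were lower without overlap (21.9% of kept probes were) and 0 were higher, with a median log2 difference of -0.65 against -0.02 over all kept probes. Alas2, the first enzyme of the haem pathway in red cell precursors, and Ppox, a late enzyme of the pathway, were lowest at -1.40 (SE 0.28) and -0.90 (SE 0.27). At the other end were Abcg2 (0.10), a porphyrin exporter gene, and Alad (-0.22), the enzyme of the second step. The median of the 6 kept member probes was -0.63, over differences from -2.16 to -0.17. It counts Car1 by 2 probes, whereas the lists hold 1 probe per gene, so the medians are not measured alike. Among 11 partners in red cell gas exchange and redox defence, 8 were lower and 1 higher without overlap, against 21.9% and 21.0% of kept probes (median -0.58). Blvrb, a biliverdin reductase, had -1.51 (SE 0.25) and Epb42, which anchors the anion exchanger, -1.37 (SE 0.33), while Gpx1, a glutathione peroxidase, had 0.33 (SE 0.20) and Add2, an adducin of the membrane skeleton, -0.50 (SE 0.51). The bicarbonate exchanger gene Slc4a1, a gene of late red cell precursors, read 197 to 479 units, all within the Y-linked range.

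Red cell membrane and blood group genes had the lowest median of the erythroid lists. Of 11 kept, 0 passed limma, 10 were lower without overlap and 0 higher (21.9% and 21.0% of kept probes were), with a median of -1.42. Kel and Ermap, blood group antigen genes, had -1.77 and -1.73, and Cd36 (-0.76) and Xk (-0.43), the partner of the Kell protein, were the least lower. Of 14 early erythroid progenitor genes, a list that shares Ermap, Rhd and Aqp1 with those above, 11 were lower and 1 higher without overlap, beside the same shares (median -0.84). Ermap (-1.73, SE 0.25) and Rhd (-1.73, SE 0.39) were the lowest of this list. Epor, the erythropoietin receptor gene, had -0.92 (SE 0.28), while Kit had -0.19 and Muc13, a mucin gene, 1.09 (SE 0.28). Within these lists 8 early progenitor, 10 membrane and 6 haem genes were lower at an unadjusted p under 0.05, against 5.83% of kept probes.

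Regulators of the globin genes were mixed. Of 20 kept, 0 passed limma, 9 were lower and 3 higher without overlap, against 21.9% and 21.0% of kept probes. The lower count is above the share over all kept probes and the higher count is below it. The median was -0.25. Nfia and Zfpm1, the latter the GATA1 cofactor FOG1, were lowest at -1.84 (SE 0.20, limma adjusted p = 0.138) and -0.83 (SE 0.20). Myb, a progenitor factor, and Nfe2, a factor acting at the globin locus control region and in megakaryocytes, were highest at 0.75 (SE 0.33) and 0.52 (SE 0.18). Klf1, the erythroid factor of the CACCC box, named here for its role, read 140064 and 143423 units in wild type and 112156 and 111352 in the null arrays. Its log2 difference was -0.34 (SE 0.18, limma adjusted p = 0.534), smaller in size than those of Hba-a1, Car1 and Car2. Sox6, a silencer of embryonic globin genes, had 0.18 (SE 0.19). Among the genes of the erythroid complexes named above, Gata1 had -0.75 (SE 0.21, limma adjusted p = 0.289) and Tal1 -0.31 (SE 0.20). Ldb1 had -0.06 (SE 0.43), with overlapping groups.

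**Figure D4:**
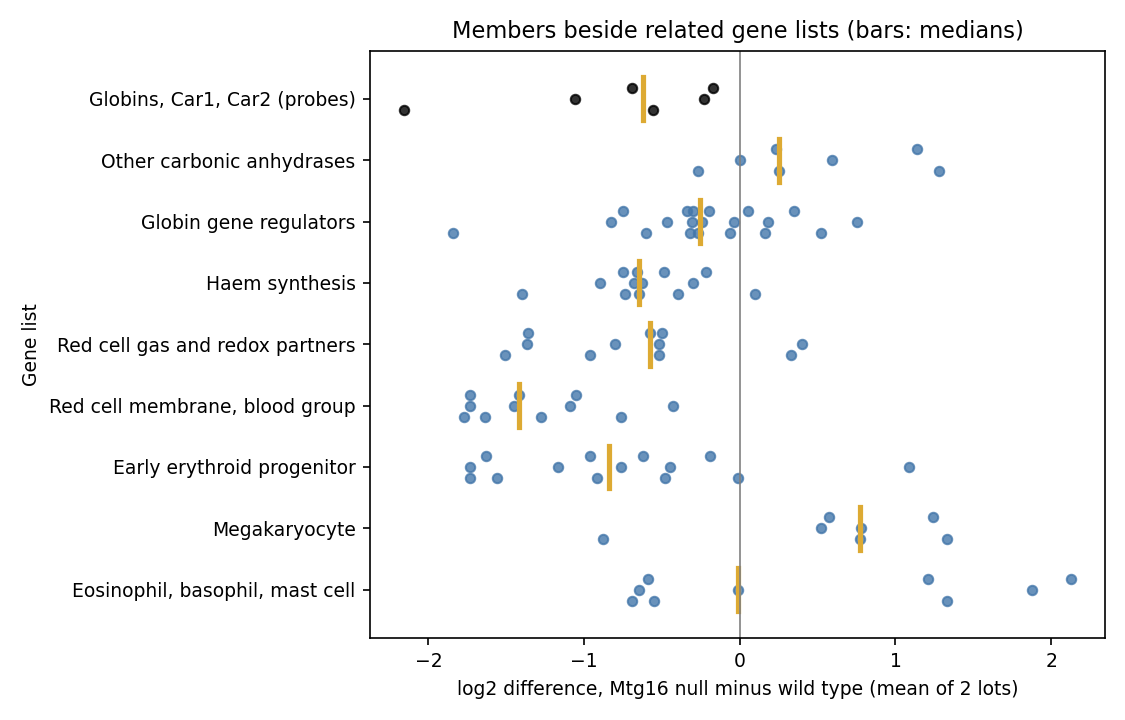
log2 difference, Mtg16 null minus wild type, averaged over the lots, for the 6 kept member probes (top row) and for genes of related lists (1 probe each); vertical bars are medians, and vertical position within a row only separates points. The medians are -0.65 for haem synthesis, -1.42 for the membrane list and 0.77 for the megakaryocyte list. That of the members (-0.63) counts both Car1 probes and so is not measured alike.

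Markers of other cell types differed between the genotypes too. The counts below stand beside 21.9% of kept probes lower and 21.0% higher without overlap. Among 6 kept progenitor genes, 3 were higher and 0 lower without overlap, with a median log2 difference of 0.46. Cd34 (1.48), Myb (0.75) and Flt3 (0.51) were the higher ones, while Kit, Mpo and Gata2 overlapped between genotypes. Of 12 late neutrophil genes 11 were lower without overlap, and their summed signal was 1371258 to 1486753 units in wild type and 149854 to 159863 in null. Of 7 megakaryocyte genes 6 were higher and 1 lower without overlap, with sums of 499000 to 499467 and 840933 to 954705 units. Pf4 (303683 to 306652 and 406282 to 473834 units) and Ppbp (151449 to 152850 and 360738 to 406282 units) made up most of these. Eosinophil, basophil and mast cell genes were split, with 4 higher and 3 lower without overlap of 9 and a median log2 difference of -0.01. Higher were Prg2 (2.13), Epx (1.88), Prg3 (1.33) and Hdc (1.21). Lower were Cpa3 (-0.69), Mcpt8 (-0.65) and Fcer1a (-0.59). The 9 genes summed to 396925 to 403478 units in wild type and 659378 to 736561 in null. Without Prg2, an eosinophil granule gene, the sums were 295518 to 303930 and 251856 to 260617 units. Mcpt8 made up much of these, at 174479 to 185185 and 112891 to 115776 units. Kept B lineage genes (4 of 5 higher without overlap) summed to 31373 to 39332 and 71728 to 80780 units. Ms4a1, the CD20 gene of mature B cells, was just below the filter and went the other way, at 1444 and 1767 units in wild type and 68 and 143 in the null arrays. T and natural killer genes (3 of 5 higher) summed to 71807 to 73039 and 215197 to 246315 units, and to 5447 to 6533 and 8383 to 9051 without Nkg7. Among osteoclast genes, relevant to Car2, Ctsk (76.6 to 291 units), Atp6v0d2 and Calcr were in the range of background or below it. Dcstamp overlapped between genotypes, at 336 and 824 units in wild type and 328 and 557 in the null arrays, above that range in lot 2, and Mmp9, which neutrophils also express, was lower. The part of these shifts in the lower globin and carbonic anhydrase signals was not tested. In bulk RNA, fewer cells of a type and less RNA per cell cannot be told apart.

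The kept probes whose pattern over the 4 arrays was most like that of a member were found by the root mean square distance of log2 signals centred on each probe's mean, among 8739 other kept probes with a single symbol. For Hba-a1 these were Kdm8 (distance 0.00761), Mt1, a metallothionein gene (0.0194), and Tmem154 (0.0207). For Car2 they were Mtrr (0.0225), Elp4 (0.0241) and Epn1 (0.0329), and for the brighter Car1 probe Mst1 (0.0379), Rnf123 (0.0563) and H2-Q8 (0.0615). Kdm8 had log2 differences of -0.58 and -0.50 in the lots, beside -0.60 and -0.52 for Hba-a1. With 4 arrays that are shared by all probes, such nearness is a description only.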

How the data were processed

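Arrays took digoxigenin-labelled cRNA, per the labels' protocols. The authors deposited linear probe intensity (28.2 to 3093946 units). After sorting, the 4 arrays were at most 11.1 units apart, so the authors had quantile normalized the intensity values. How the scans were read and background corrected is not given in the sources used here. No detection or saturation call was used. The number of arrays limits the precision.

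Gene symbols came from GEO's platform annotation (14411 with 1 symbol, 247 with several, 18354 with none). Promoters and gene order are from RefSeq, assembly GRCm38.p6. The files name no genome build, so gene coordinates were not used.

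A floor of 75.8 units, the 1st percentile, was set and values were put on the log2 scale. Tests ran on the 16506 kept probes, the 50% with the higher mean. Null minus wild type was tested for each with limma 3.58.1 (lmFit and eBayes, genotype as the only term, R 4.3.3), which also ran on simulated data, and Benjamini-Hochberg adjusted over all kept probes at a threshold of 0.05. Standard errors (SE) are moderated (2 residual and 1.99 prior degrees of freedom). The replicate number is the array lot, per the series text, and so pairs the arrays; the deviations from the genotype means of the arrays of lot 1 correlated at 0.512 over kept probes. With 2 arrays against 2, an exact permutation test cannot go below p = 0.333.

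List genes are represented by their brightest kept probe. The members and lists were chosen with earlier results of these data known. Named were all member probes, the 3 kept probes most like Hba-a1, Car2 and the brighter Car1 probe, and other globins and carbonic anhydrases. From each erythroid or regulator list the 2 highest and 2 lowest genes with 1 sign in both lots were named. Klf1, Sox6, Gata1, Tal1, Ldb1, Epor, Slc4a1 and the genes named for cell content (Prg2, Ms4a1 and Nkg7 among them) were chosen after their values were seen. Alternatives were the lot as a block, other filters, normalizations and floor, a variance trend, 1 probe per gene and each array left out. Figures used matplotlib 3.10.9 in Python 3.11.15.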

Additional observations from a re-analysis of the deposited data

How the results depend on the processing

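Hba-a1, both Car1 probes, Car2 and Hbb-y stayed lower in null under each setting in which they were tested. For most settings this was fixed in advance. Both null arrays of these probes lay below both wild-type arrays, so leaving out an array could change the size but not the direction. The filters, the floor and the variance trend left their differences as they were. With an array left out, the log2 difference ran from -0.72 to -0.40 for Hba-a1, from -1.44 to -0.67 and from -2.51 to -1.80 for the Car1 probes, from -0.78 to -0.60 for Car2 and from -0.38 to -0.08 for Hbb-y. For Hba-x it ran from -0.63 to 0.29, and turned positive when wild-type array 2 (0.29) or null array 1 (0.03) was left out. Car1 probe 932062, at -2.16, passed limma when a variance trend was used or the tested set was the brightest 25%, and under no other setting. Over all its settings the adjusted p lay between 0.0308 and 0.716. The count of probes past the threshold was 0 with the lot as a replicate block (smallest limma adjusted p = 0.169, 3332 at an unadjusted p under 0.05), and 0 without the filter. It was 331 with the brightest 25%, 234 with a variance trend and 10 with 1 probe per gene, which changes the number of genes tested. With an array left out it ran from 0 to 1, the 1 without null array 2. The block changed the differences of 0 members, since each lot holds 1 array per genotype, and no list gained a call with the block or without the filter. Quantile and median scaling could change little, as the values were already normalized. Signals of Hba-x and Hbb-bh1 near the Y-linked range limit what can be said of them.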
